A study of Mus musculus with 7 samples.

Results

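Kruppel-like factors are transcription factors that carry zinc fingers at their C-terminal end and bind GC-rich sequence and the CACCC box in promoters and enhancers. The 10 described here, Klf2, Klf3, Klf4, Klf5, Klf6, Klf9, Klf10, Klf11, Klf13 and Klf15, are the genes carrying these symbols among the 21878 genes of the count table and of the FPKM table, and all 10 had enough counts to be tested. They were read in 7 RNA-seq libraries of abdominal aorta from male C57BL/6 mice aged 8 weeks that had received angiotensin II (Ang II), a pressor peptide, over a period of up to 28 days. Of these libraries, 3 were labelled ApoE-/- (ApoE 1 to ApoE 3), a genotype that lacks the apolipoprotein that clears remnant lipoproteins and has high plasma cholesterol. The other 4 were labelled ApoE-/-Nur77-/- (DKO 1 to DKO 4, the double knockout), a label that adds the loss of the nuclear receptor Nur77, encoded by Nr4a1. By their labels, both groups carry the Apoe deletion and received Ang II, and no library is labelled as untreated or Apoe-intact. The counts of Nr4a1 and Apoe did not follow these labels.

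In the vessel wall these factors have distinct and partly opposed roles. Klf2 and Klf4 are induced in endothelium by laminar flow and support an anti-inflammatory, anti-thrombotic state. Klf4 also takes part in the loss of the contractile phenotype of smooth muscle, and Klf5 and Klf6 take part in remodelling after injury. Klf9 and Klf15 are direct targets of the glucocorticoid receptor, Klf10 and Klf11 are early genes of TGF-beta signalling, and Klf3 recruits the corepressor CtBP. Klf9, Klf10 and Klf15 have daily rhythms in several tissues. In fat, Klf5, Klf9 and Klf15 promote adipogenesis whereas Klf2 and Klf3 oppose it. Per the annotation in the authors' deposited table, 8 of the 10 factors carry the term for activation of transcription by RNA polymerase II, 5 carry the term for its repression and 3 carry both.

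The labels were checked against the targeted genes first. Nr4a1 was read at 192.5, 56.4 and 111 CPM (counts scaled to library size with TMM factors) in ApoE 1 to ApoE 3 and at 46.2, 57.0, 90.1 and 92.7 CPM in DKO 1 to DKO 4, so that the groups overlapped (log2 fold change -0.75, SE 0.42, with an adjusted p from edgeR of 0.360). Apoe, deleted in both groups per the labels, was at 184 to 250.3 CPM in the first group and at 18.3 to 34.7 CPM in the second (log2 fold change -2.95, SE 0.23, with an adjusted p from edgeR of 0.0227). Which part of either gene is deleted is not stated in any source at hand, so "ApoE-/-" and "double knockout" below stand for what the libraries are labelled, and every difference is double knockout minus ApoE-/-. Library totals were 19295287 to 21727192 counts. Smooth muscle markers, all 10 of them tested, summed to 8290.3 to 30103.7 CPM over the 7 libraries, whereas atrial cardiomyocyte markers summed to 422 CPM in ApoE 2 and 1433 CPM in ApoE 3 against 48.4 to 106 CPM elsewhere.

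The 10 genes lie on 10 different chromosomes, so that no pair of them are neighbours. RefSeq (GRCm38.p6) held a start-site sequence of 300 bases, with 250 before and 50 after the start, for 8 of the 10. These 8 were GC-rich (63.0% to 77.7% GC, median 72.7%, against a median of 52.7% over all 32851 such sequences). Those of Klf15, Klf4, Klf2 and Klf9 are printed 5′ to 3′ along the gene, since these 4 had the lowest level relative to the ApoE-/- group among the factors that were abundant, from 250 bases before to 10 after the start. Capitals mark the motifs that the factors themselves bind (the CACCC box and the GC box), the E-box and the MEF2 box. Klf15 is shown at chr6:90462326-90462585, plus strand, with its start inside the gene's annotated span. Klf4 is at chr4:55532466-55532725, minus strand, Klf2 at chr8:72318812-72319071, plus strand and Klf9 at chr19:23140976-23141235, plus strand.
Klf15: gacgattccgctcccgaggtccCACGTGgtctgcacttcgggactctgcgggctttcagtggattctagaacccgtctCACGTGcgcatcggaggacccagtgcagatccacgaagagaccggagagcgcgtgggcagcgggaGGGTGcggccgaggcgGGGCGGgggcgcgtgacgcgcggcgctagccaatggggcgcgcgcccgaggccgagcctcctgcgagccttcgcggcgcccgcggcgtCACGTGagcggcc
Klf4: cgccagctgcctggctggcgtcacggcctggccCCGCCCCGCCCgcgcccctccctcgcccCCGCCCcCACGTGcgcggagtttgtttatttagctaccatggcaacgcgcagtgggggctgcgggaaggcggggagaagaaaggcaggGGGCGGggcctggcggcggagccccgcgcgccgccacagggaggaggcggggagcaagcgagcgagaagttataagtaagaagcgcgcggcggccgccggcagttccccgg
Klf2: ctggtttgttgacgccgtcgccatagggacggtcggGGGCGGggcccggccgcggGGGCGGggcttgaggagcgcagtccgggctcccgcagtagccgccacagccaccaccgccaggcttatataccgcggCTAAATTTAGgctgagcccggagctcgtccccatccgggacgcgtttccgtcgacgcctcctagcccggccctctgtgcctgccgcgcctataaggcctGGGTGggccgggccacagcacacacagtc
Klf9: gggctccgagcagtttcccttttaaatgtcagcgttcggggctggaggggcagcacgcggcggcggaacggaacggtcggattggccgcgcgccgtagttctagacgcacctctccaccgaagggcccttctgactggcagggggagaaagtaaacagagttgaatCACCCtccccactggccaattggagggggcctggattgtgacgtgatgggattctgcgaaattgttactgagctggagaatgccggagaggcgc

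Of the 8 sequences, 7 held a GC box (GGGCGG, either strand), against 35.7% of all start-site sequences of that length, and 5 held a CACCC box (CACCC, either strand), against 57.5%. In Klf3 and Klf13 a GC box and a CACCC box shared bases. An E-box (CACGTG), the element bound by the clock activators, was in 4 of 8 (Klf4, Klf6, Klf11 and Klf15), against 7.15% of all. Klf15 alone had 3 of them, the last of which lay across the start site itself. The MEF2 box, by its consensus, was in Klf2, at bases -118 to -109, against 0.557% of all. An AP-1 site (TGANTCA, either strand) was in Klf9, where it shared bases with the CACCC box, against 7.81% of all. The CCAAT box (CCAAT, either strand) was in 5 of 8, against 37.4%. No match within these windows was found for the Nur77 element (AAAGGTCA, in 1.51% of all), the glucocorticoid half-site (TGTTCT, in 19.0% of all), the cAMP response element (TGACGTCA, in 1.79% of all), the D-box (TTATGNAA, in 3.38% of all), the TATA box (TATAAA, in 13.6% of all) or, by its consensus, the CArG box (1.63% of all), each searched on both strands. The shares of all sequences were not matched for GC content, which was higher in these 8 (median 72.7% against 52.7%). These matches describe the letters of the windows and not sites of binding.

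**Figure D1:**
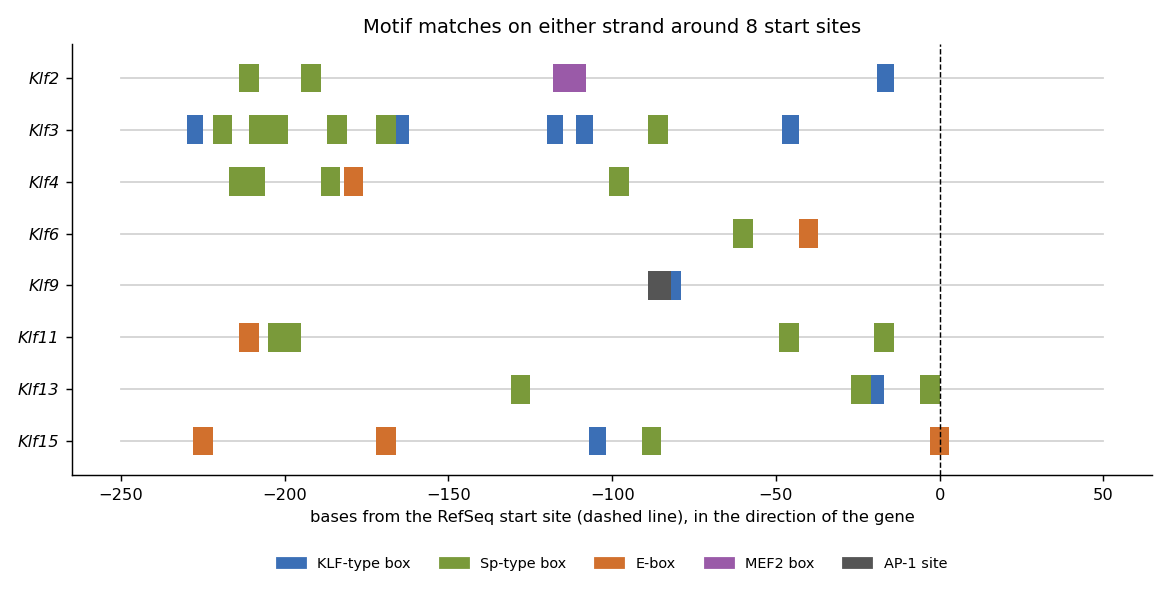
Motif matches on either strand in the 300 bases around 8 RefSeq start sites (horizontal axis: bases from the start site, dashed; one row per gene; KLF-type box is the CACCC box and Sp-type box the GC box). Klf15 carries 3 E-boxes, one of them on the start site, and Klf9 is the only row without an Sp-type box.

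Measured per length, Klf2 was the most abundant of the factors in all 7 libraries. On the deposited FPKM scale, in which the authors scaled counts for gene length and depth, its level was 92.5 ± 10.3 FPKM (SD, n = 3) in the ApoE-/- group and 65.8 ± 15.8 FPKM (SD, n = 4) in the double knockout. It made up 29.5% to 42.8% of the summed FPKM of the 10 genes. Klf9 (34.1 ± 2.97 FPKM) and Klf6 (32.4 ± 1.05 FPKM) came next in the ApoE-/- group and overlapped each other. Klf4 (23.3 ± 3.39 FPKM) and Klf13 (19.5 ± 1.61 FPKM) followed, also overlapping. Below them stood Klf3 (12.3 ± 2.07 FPKM), Klf15 (8.04 ± 0.50 FPKM), Klf10 (7.04 ± 0.69 FPKM) and Klf11 (3.99 ± 0.49 FPKM). Klf5 was lowest in every library, at 0.275 to 1.02 FPKM in the ApoE-/- group and 0.462 to 0.681 FPKM in the double knockout.

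The order differed between the groups in its lower part. Klf15 stood above Klf10 in all 3 ApoE-/- libraries and below it in all 4 double-knockout libraries. The ratio of Klf15 to Klf10 FPKM within a library was 1.16, 1.19 and 1.08 in ApoE 1 to ApoE 3 and 0.438, 0.284, 0.621 and 0.734 in DKO 1 to DKO 4. Such a ratio does not depend on how libraries are scaled to each other. The ratio of Klf4 to Klf3 was 2.69, 1.55 and 1.65 against 0.964, 0.755, 1.12 and 1.24, and that of Klf2 to Klf6 was 3.09, 2.62 and 2.85 against 1.63, 1.56, 1.78 and 2.23. None of the 3 ratios overlapped between the groups. They were chosen after their values were seen and are given without a test.

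**Figure D2:**
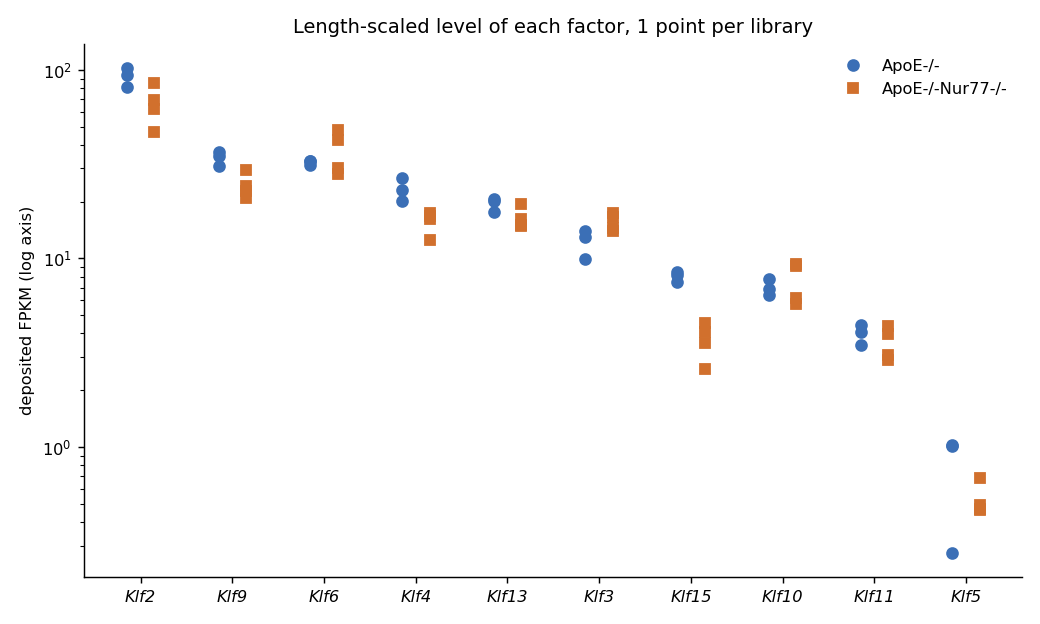
Deposited FPKM of each factor (vertical, log axis) in the 3 ApoE-/- (circles) and 4 ApoE-/-Nur77-/- libraries (squares), 1 point per library, genes ordered by their ApoE-/- mean. Klf15 sits at 7.48 to 8.45 FPKM in the first group and 2.59 to 4.53 FPKM in the second, while Klf10 stays between 5.73 and 9.31 FPKM.

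Between the groups, Klf15, Klf4, Klf2, Klf9 and Klf13 had lower mean levels in the double knockout, Klf3 had a higher one, and none of the 10 passed the test. At an adjusted p under 0.05 (edgeR's quasi-likelihood test, Benjamini-Hochberg over 14609 genes), 0 of 10 factors were called, where 0.0274% of all tested genes were. At an unadjusted p under 0.05, 5 of 10 were lower, where 11.8% of all genes were, and 1 of 10 was higher, where 8.00% of all genes were. Their median log2 fold change was -0.42, with 7 of 10 negative, against -0.02 and 52.6% negative over all genes tested. The 10 factors were chosen with earlier results of these data known, so these shares describe them and do not test them. The CPM ranges were fully apart for 5 of 10, each lower (9.24% of all genes), and for 0 in the higher direction (7.08% of all genes). On 3 other scales the count of lower ones was 3 with RLE factors (8.18% of all genes), 2 on plain totals (9.21% of all genes) and 3 in FPKM (8.64% of all genes). Klf3 was apart in the higher direction on plain totals (7.37% of all genes) and in FPKM (6.74% of all genes), and with RLE factors 0 were (8.29% of all genes). DESeq2's Wald test (7.82% of all genes called) and limma voom with quality weights (16.2% of all genes called) each called 3 of 10, which were Klf15, Klf4 and Klf9 in both cases. Since no label ties a library to its own animal, the p-values speak only of library-to-library spread, which may be technical. In whole tissue, fewer cells of a type and less RNA per cell cannot be told apart.

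**Figure D3:**
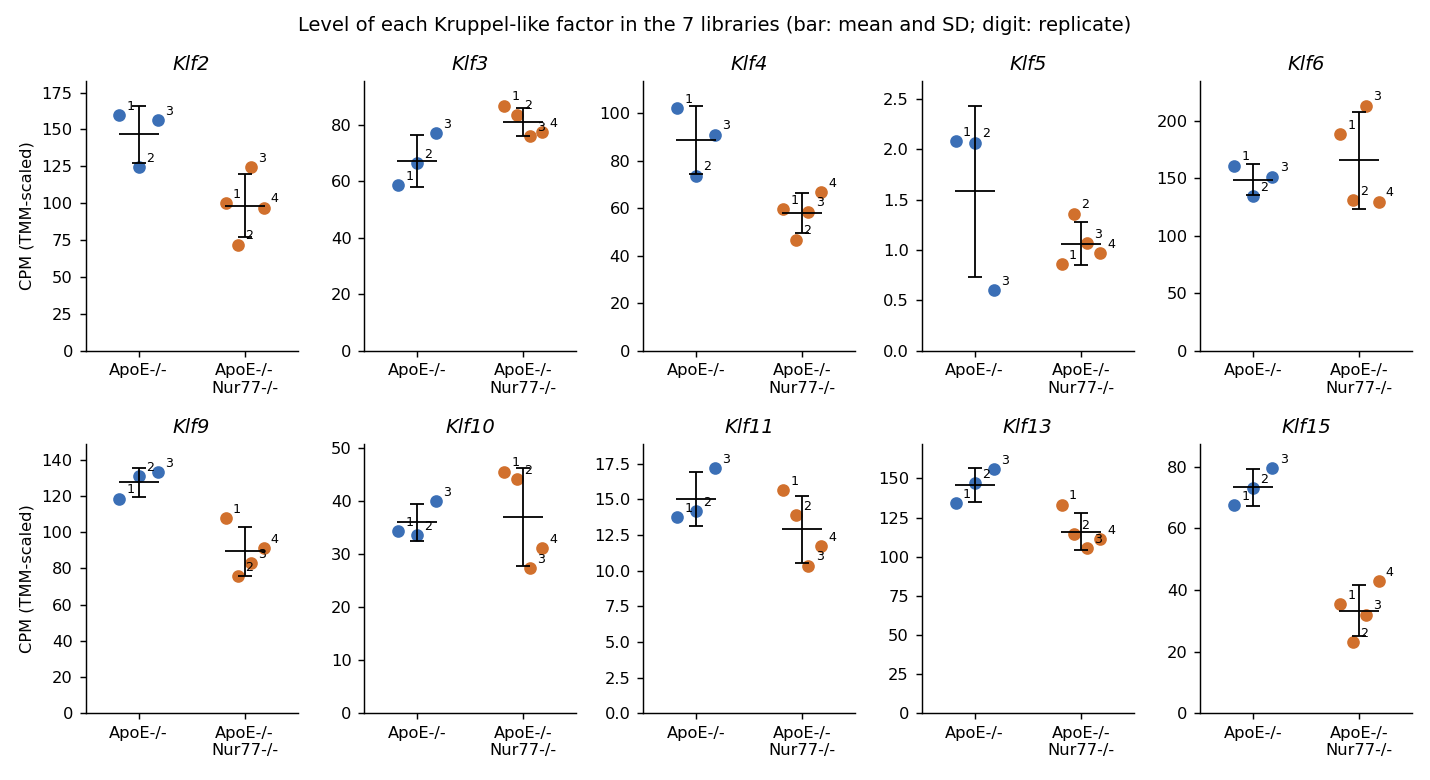
CPM on TMM-scaled library sizes (vertical, from 0) of each factor in the 3 ApoE-/- and 4 ApoE-/-Nur77-/- libraries; points are libraries with their replicate digit, and bars give the mean and SD. Klf15 shows the widest gap, 67.5 CPM in the lowest ApoE-/- library against 42.9 CPM in the highest double-knockout library, while Klf6, Klf10 and Klf11 interleave.

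Klf15, a metabolic regulator of fat, muscle and liver that is induced by glucocorticoids (chromosome 6, 90461043 to 90491803), showed the largest difference of the 10. Its level was 67.5, 73.0 and 79.5 CPM in ApoE 1 to ApoE 3 and 35.3, 23.1, 32.1 and 42.9 CPM in DKO 1 to DKO 4. Every double-knockout library lay below every ApoE-/- library, with DKO 2 lowest. The means were 73.4 ± 6.03 CPM (SD, n = 3) and 33.3 ± 8.22 CPM (SD, n = 4), 2.20-fold lower in the double knockout (log2 fold change -1.14, SE 0.19, edgeR adjusted p = 0.114). By unadjusted p it ranked 63 among the 14609 genes. Its adjusted p was 7.78e-05 with DESeq2 and 0.0177 with limma voom.

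Klf15 is also expressed in adipocytes and heart. Adipocyte markers moved with the groups, and atrial markers were high in ApoE 2 and ApoE 3 only. White adipocyte markers, 10 of 10 negative with a median log2 fold change of -1.05, summed to 9274.7 to 12777.5 CPM in the ApoE-/- group and 4500.7 to 7265.2 CPM in the double knockout, and none of them was at 0 in any library. Brown adipocyte markers were 8 of 8 negative (median -1.45) and summed to 729.7 to 2051 CPM against 324 to 698 CPM. The part of fat in the Klf15 difference was not tested. For heart, ApoE 1 had atrial markers as low as the double knockout (82.5 CPM summed, against 48.4 to 106 CPM). Nppa, Myl7, Sln and Myh6 were each at 0 counts in at least 1 of the 7 libraries. Klf15 was at 67.5 CPM in ApoE 1, against 23.1 to 42.9 CPM in the double knockout. It was at 73.0 CPM in ApoE 2 and 79.5 CPM in ApoE 3, whose atrial sums were 422 and 1433 CPM. DKO 4 had both the highest Klf15 level (42.9 CPM) and the highest atrial sum (106 CPM) of its group. The largest parts of that sum were Ryr2 (56.4 CPM) and Actc1 (28.4 CPM), while Nppa, Myl7, Sln and Myh6 were at 0 counts in DKO 4. Averaged as log2 CPM, the atrial list was lower in DKO 4 than in DKO 1 and DKO 2. DKO 4 also had the highest white adipocyte sum (7265.2 CPM) and smooth muscle sum (30103.7 CPM) of its group. The part of heart tissue in the Klf15 difference was not tested.

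Genes known as Klf15 targets in metabolism had lower mean levels beside it. Of the 6 on the list, which was chosen with earlier results of these data known, 5 were tested and 0 passed in either direction. All 5 were negative and below an unadjusted p of 0.05 (edgeR), where 11.8% of all genes were lower at that threshold. Their median log2 fold change was -0.94. The member with the smallest p was Prodh, which starts proline breakdown. It was at 27.5, 27.8 and 32.9 CPM in the ApoE-/- libraries and at 13.8, 14.1, 14.5 and 19.1 CPM in the double knockout, without overlap (log2 fold change -0.94, SE 0.15, edgeR adjusted p = 0.110). Averaged over the list, log2 CPM was 5.60 to 6.47 against 4.76 to 5.45. Several of these genes are themselves expressed in fat, whose markers are given above.

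Klf9, a repressor and activator that responds to glucocorticoids and thyroid hormone (chromosome 19, 23141226 to 23168129), was at 118, 131 and 133 CPM in ApoE 1 to ApoE 3. In DKO 1 to DKO 4 it was at 108, 75.7, 82.8 and 91.1 CPM. The groups did not overlap, and DKO 1 lay nearest to the ApoE-/- libraries. The means were 127 ± 7.84 CPM (SD, n = 3) and 89.3 ± 13.8 CPM (SD, n = 4; log2 fold change -0.51, SE 0.13, edgeR adjusted p = 0.156; 0.0298 with DESeq2 and 0.0310 with limma voom). On plain library totals, without TMM, the values of ApoE 1 and DKO 1 crossed.

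Other glucocorticoid-responsive genes had lower mean levels as well. All 13 on the list were tested and all 13 were negative (median log2 fold change -0.76), where 52.6% of all genes tested were. At an unadjusted p under 0.05 (edgeR) 8 were lower, where 11.8% of all genes were, and 0 passed the adjusted threshold. The list was chosen with earlier results of these data known. Mt1, a metallothionein induced by glucocorticoids and metals, had the smallest p. It was at 526, 257 and 320.2 CPM against 178, 93.5, 150.2 and 134 CPM (log2 fold change -1.40, SE 0.29, edgeR adjusted p = 0.132). Averaged over the list, log2 CPM was 7.48, 7.17 and 6.86 in ApoE 1 to ApoE 3 and 6.77, 6.00, 6.47 and 6.07 in DKO 1 to DKO 4. As for Klf9, DKO 1 was the double-knockout library closest to the ApoE-/- group, whereas for Klf15 it was DKO 4 (42.9 CPM). DKO 2 was the lowest in this list, as it was for Klf9 and Klf15 but also for Klf2 and Klf4. Clock genes, a list that shares Per1 with this one, had a median of -0.87 over 15 tested. Of these, 4 were positive and 11 negative, and 0 passed. The list pools activator and repressor genes, and its log2 fold changes ran from -2.56 to 3.88. The clock activator gene Clock, with the smallest p, was higher at 62.0 to 80.3 CPM in the double knockout against 45.7 to 52.2 CPM, and DKO 1 was again the nearest to the ApoE-/- group. The time of day at which tissue was taken is not given in the sources used here.

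**Figure D4:**
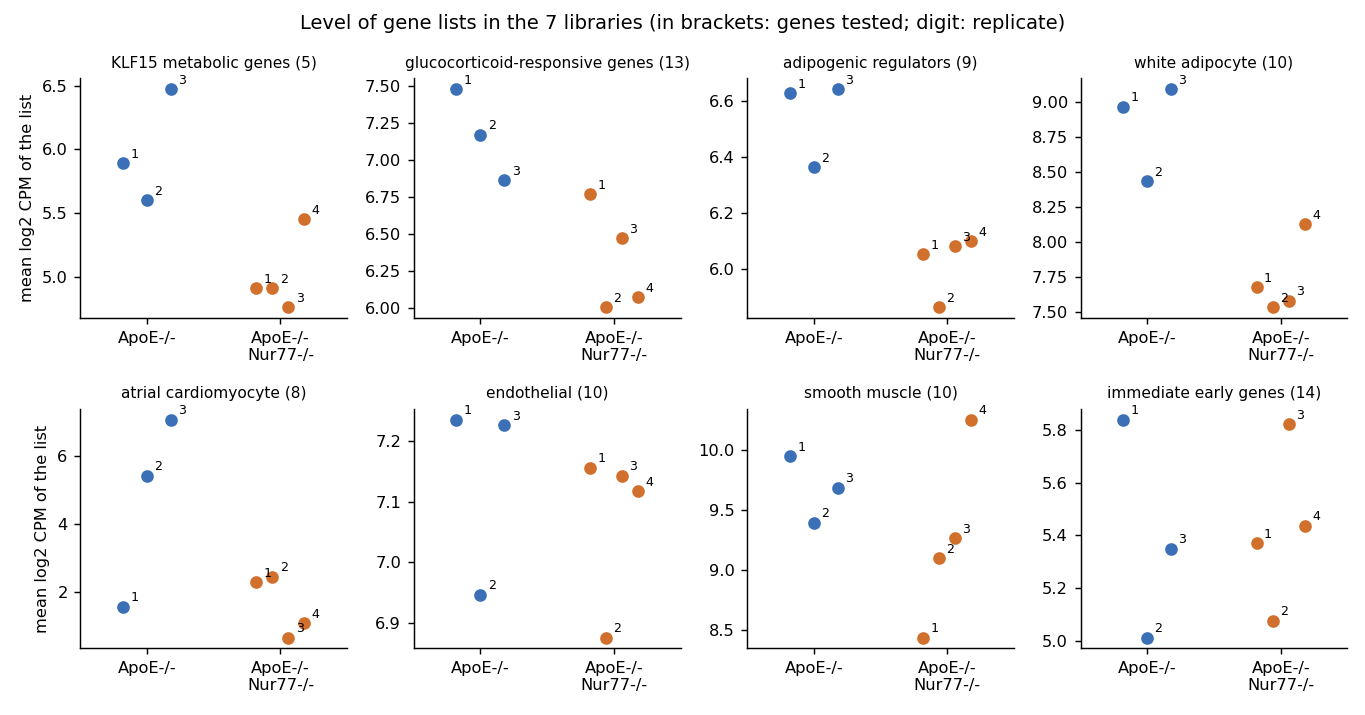
Mean log2 CPM (vertical) of 8 gene lists in the 7 libraries, digits giving the replicate and brackets the number of genes tested. Klf15 metabolic, glucocorticoid-responsive, adipogenic and white adipocyte lists do not overlap between the groups, while the endothelial, smooth muscle and immediate early lists do and the atrial list is high in ApoE 2 and ApoE 3 only.

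Klf4 (chromosome 4, 55527137 to 55532475), active in endothelium and in smooth muscle that is losing its contractile state, was at 102, 73.6 and 90.8 CPM in ApoE 1 to ApoE 3 and at 59.5, 46.7, 58.5 and 66.8 CPM in DKO 1 to DKO 4. No double-knockout library reached the lowest ApoE-/- library. The means were 88.8 ± 14.3 CPM (SD, n = 3) and 57.9 ± 8.32 CPM (SD, n = 4; log2 fold change -0.62, SE 0.15, edgeR adjusted p = 0.153; 0.0166 with DESeq2 and 0.0256 with limma voom). Klf4 and Klf15 were the 2 factors whose groups stayed apart under TMM, RLE and plain scaling of CPM and in FPKM alike. Adventitial fibroblast markers, the other wall cells among the lists, summed to 6345.4 to 7386 CPM against 4553.6 to 5718 CPM (10 tested, 6 negative, median -0.41), and their part in these differences was not tested.

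Klf2, the flow-induced endothelial factor that also keeps T lymphocytes quiescent (chromosome 8, 72319062 to 72321654), was at 159.8, 124.43 and 156 CPM against 99.8, 72.0, 124.41 and 97.0 CPM. ApoE 2 and DKO 3 were thus level, and the groups were separated by a margin in the second decimal that disappeared with RLE factors, with plain totals and in FPKM, where DKO 3 (85.1 FPKM) exceeded ApoE 2 (81.6 FPKM). The means were 147 ± 19.4 CPM (SD, n = 3) and 98.3 ± 21.4 CPM (SD, n = 4; log2 fold change -0.58, SE 0.18, edgeR adjusted p = 0.172). DKO 3, with the highest Klf2 level of its group, also had the highest T lymphocyte marker sum (73.9 CPM, against 14.8 to 47.6 CPM in the other libraries). Its B lymphocyte marker sum (123 CPM) was the highest as well. In the ApoE-/- group the highest T sum (40.5 CPM) was in ApoE 2, which had the lowest Klf2 level of that group. The lowest T sum (14.8 CPM) was in ApoE 3, with Klf2 at 156 CPM. All 8 tested T cell markers were positive, with a median log2 fold change of 0.81, whereas that of Klf2 was negative. The part of lymphocytes in the Klf2 level was not tested.

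Endothelial markers and the endothelial genes that Klf2 and Klf4 activate overlapped between the groups. The 10 endothelial markers had a median log2 fold change of -0.13 and summed to 1607 to 1920.3 CPM in the ApoE-/- group and 1468 to 1893 CPM in the double knockout, overlapping. Of 7 endothelial genes that Klf2 and Klf4 activate, 7 were tested, 0 passed, and the median was -0.06. Gja4, the connexin of arterial endothelium, had the smallest p, at 65.1 to 108 CPM against 55.7 to 74.3 CPM (log2 fold change -0.36, SE 0.18, edgeR adjusted p = 0.317). Of 6 that they repress, 0 passed and the median was 0.21. Among these Vcam1, a leukocyte adhesion molecule, was at 314, 316 and 298 CPM against 516, 385, 489 and 318 CPM (log2 fold change 0.47, SE 0.18, edgeR adjusted p = 0.211). Its groups did not overlap, but DKO 4 was almost level with ApoE 2. Vcam1 also had the smallest p of the 8 modulated smooth muscle genes, of which 7 were positive (median 0.34) and 0 passed. The contractile smooth muscle markers were 9 of 10 negative (median -0.27) and their sums overlapped widely, with the lowest and the highest of all 7 libraries, DKO 1 and DKO 4, both in the double knockout. Klf4 was at 59.5 CPM in DKO 1 and 66.8 CPM in DKO 4.

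Klf13, a factor of T lymphocytes and heart development (chromosome 7, 63886351 to 63938915), was at 134.2, 147 and 156 CPM against 133.3, 114, 105 and 111 CPM. ApoE 1 and DKO 1 were nearly equal and crossed with RLE factors, with plain totals and in FPKM. The means were 146 ± 10.8 CPM (SD, n = 3) and 116 ± 12.1 CPM (SD, n = 4; log2 fold change -0.33, SE 0.11, edgeR adjusted p = 0.175). Klf3, the CtBP-recruiting repressor (chromosome 5, 64803521 to 64832901), went the other way, at 58.6, 66.4 and 77.0 CPM against 86.8, 83.6, 76.1 and 77.5 CPM. Only ApoE 3 reached into the double-knockout range, and in FPKM and on plain totals the groups did not overlap. The means were 67.4 ± 9.24 CPM (SD, n = 3) and 81.0 ± 5.09 CPM (SD, n = 4; log2 fold change 0.27, SE 0.11, edgeR adjusted p = 0.239), and the difference was 0.18 without ApoE 1. RefSeq spans of Klf3 and Klf13 each overlap 2 other annotated genes, that of Klf9 overlaps Mir1192 and that of Klf10 overlaps Gm35248. Whether counting used strand is not given, so the reads of these 4 factors cannot be wholly told apart from those of the overlapping genes.

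Klf6, an early gene of injury and inflammation that is also active in macrophages (chromosome 13, 5861489 to 5870393), was at 161, 134 and 152 CPM in the ApoE-/- libraries. In the double knockout it was at 188, 131, 213.5 and 129.9 CPM. DKO 1 and DKO 3 thus lay above every other library and DKO 2 and DKO 4 below them all (means 149 ± 13.6, SD, n = 3, and 166 ± 42.0, SD, n = 4; log2 fold change 0.15, SE 0.20, edgeR adjusted p = 0.703). Its value was 0.0080 without DKO 3, 0.084 without ApoE 2, 0.27 without DKO 2 and 0.25 without DKO 4. Macrophage markers, 10 in all, had their highest sums in the same 2 libraries, 2622 CPM in DKO 1 and 2939 CPM in DKO 3, against 1606 to 2234 CPM in the other 5. Among those 5 the orders differed. ApoE 2 (2234 CPM) and DKO 2 (2090 CPM) had the higher macrophage sums, with Klf6 at 134 and 131 CPM. ApoE 3 had the lowest sum (1606 CPM), with Klf6 at 152 CPM. The part of macrophages in the Klf6 level was not tested.

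The TGF-beta-induced pair Klf10 and Klf11 and the remodelling factor Klf5 overlapped between the groups. Klf10 (chromosome 15, 38291464 to 38300711) was at 34.3, 33.6 and 40.0 CPM against 45.5, 44.1, 27.3 and 31.1 CPM, the double knockout holding both the 2 highest and the 2 lowest libraries (log2 fold change 0.04, SE 0.20, edgeR adjusted p = 0.928, with a sign that reversed under 4 alternatives). Klf11 (chromosome 12, 24651371 to 24662782) was at 13.7, 14.2 and 17.2 CPM against 15.7, 13.9, 10.3 and 11.7 CPM (log2 fold change -0.22, SE 0.17, edgeR adjusted p = 0.502). That difference was -0.11 without ApoE 3 and -0.13 without DKO 3. In both genes DKO 1 and DKO 2 stood above DKO 3 and DKO 4. Of 8 TGF-beta response genes 0 passed and the median was -0.03. Skil, a SMAD corepressor, had the smallest p, at 63.1 to 67.6 CPM against 79.6 to 96.1 CPM without overlap (log2 fold change 0.43, SE 0.09, edgeR adjusted p = 0.133). Klf5 (chromosome 14, 99298691 to 99313412) rested on 42, 45 and 11 counts in ApoE 1 to ApoE 3 and on 18, 29, 24 and 19 counts in DKO 1 to DKO 4. ApoE 1 and ApoE 2 were highest and ApoE 3 lowest of all, so that its log2 fold change of -0.57 (SE 0.46, edgeR adjusted p = 0.513) was imprecise. Leaving out ApoE 1 gave -0.33, leaving out ApoE 2 gave -0.33 and leaving out ApoE 3 gave -0.96, and it was -0.19 on the log2(FPKM + 1) scale.

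Several of the 10 factors belong to the early response to stimulation, whose other genes did not share a direction. Of 14 immediate early genes 8 were positive and 6 negative, with a median log2 fold change of 0.04, and 0 passed. Dusp1, a phosphatase gene that glucocorticoids also induce, had the smallest p (149 to 216 CPM against 79.3 to 148 CPM; log2 fold change -0.67, SE 0.24, edgeR adjusted p = 0.202). Adipogenic regulators, among which Cebpd is also on the glucocorticoid list, were 9 of 9 negative with a median of -0.58 and 0 passed. Among them Pparg, the master regulator of fat cells, was at 64.8 to 86.1 CPM against 31.9 to 50.9 CPM (log2 fold change -0.85, SE 0.18, edgeR adjusted p = 0.136).

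No other gene of the family passed the test. Of 7 other KLF genes in the table, Klf7, Klf8, Klf12 and Klf16 were tested. Their log2 fold changes ran from 0.02 to 0.15, all groups overlapped, and 0 passed, Klf8 having the smallest p (edgeR adjusted p = 0.675). Klf1 (0 to 3 counts), Klf14 (0 to 2 counts) and Klf17 (0 counts in every library) were not tested. Of 9 SP genes, the sister family that binds the GC box, 5 were tested with a median of 0.31, 4 positive, and 0 passed. Sp1, a widely expressed activator, was at 63.9, 78.5 and 71.5 CPM against 108, 90.8, 95.3 and 82.8 CPM without overlap (log2 fold change 0.40, SE 0.12, edgeR adjusted p = 0.161). Partner proteins of the factors, such as the CtBP and Sin3 corepressors, had a median of 0.04 over 11 tested and 0 passed. Sin3b had the smallest p, at 86.7 to 97.4 CPM against 68.7 to 84.1 CPM (log2 fold change -0.28, SE 0.10, edgeR adjusted p = 0.190).

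**Figure D5:**
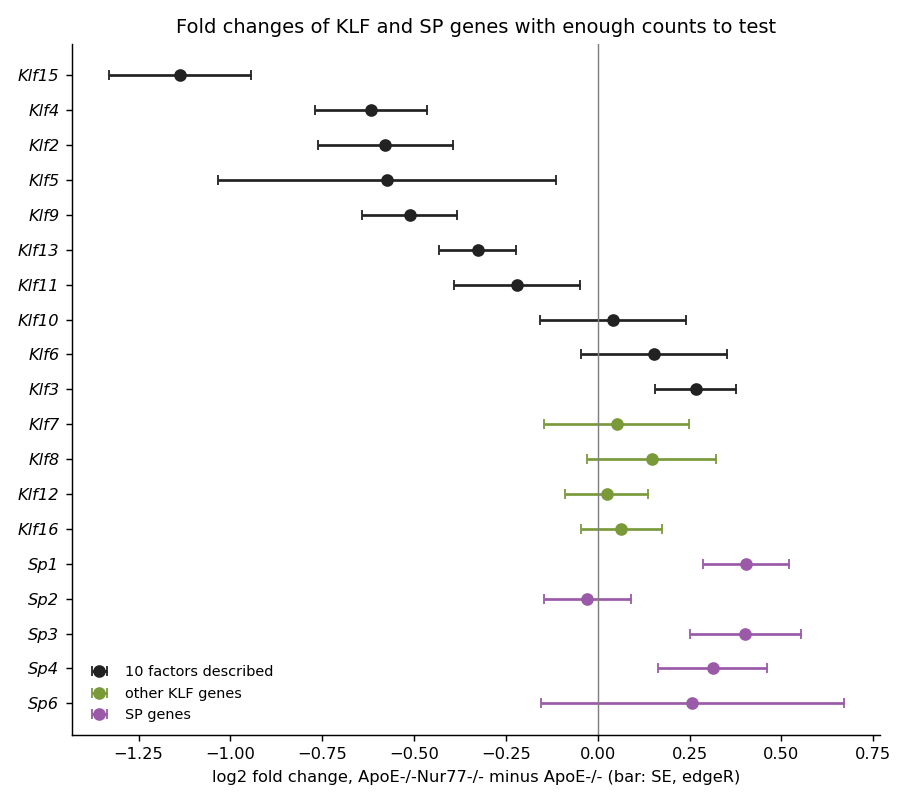
Log2 fold change, ApoE-/-Nur77-/- minus ApoE-/- (horizontal; bars are the SE from edgeR), of the 10 factors described (black), 4 other KLF genes (green) and 5 SP genes (purple). Klf15 lies farthest from 0 at -1.14, Klf5 has the widest bar of the 10, and no gene shown passed an adjusted p of 0.05.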

How the data were processed

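Abdominal aorta RNA was sequenced from TruSeq Stranded mRNA libraries, per the labels' protocols. The submitters' processing notes name Trimmomatic, HISAT2, HTSeq, Cufflinks and DESeq and the build GRCm38.p6, without roles or versions. The deposited gene counts are whole numbers without normalization, and the deposited FPKM values were scaled by the authors for gene length and depth. Columns headed ApoE went to the samples titled ApoE of the same number. Those headed KO were taken to be the samples titled DKO and were matched by number. Gene coordinates and start-site sequences came from RefSeq on GRCm38.p6, matched by gene identifier or symbol.

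Of 21878 genes, 14609 passed edgeR's filterByExpr (minimum count 10). Counts were TMM-normalised and tested across all of these genes with edgeR's quasi-likelihood test, without a block, and p-values adjusted by Benjamini-Hochberg were called under 0.05. The SE was taken from the F statistic, as fold change (log2, unsigned) over its root. The level of a list averages log2 CPM with a prior count of 2, and marker sums add up CPM. A count of 0 allowed up to 0.133 to 0.164 CPM, which covers counting error only. Computation used edgeR 4.0.16 and DESeq2 1.42.0, with limma 3.58.1, under R 4.3.3.

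The members and lists were chosen with earlier results of these data known. All members were named, and of each list the gene with the smallest p unless some passed. Alternatives were RLE factors, DESeq2, limma voom, other count filters, the replicate number as a block, left-out libraries, and limma on log2 FPKM (pseudocounts 1 and 0.1, mean of at least 1 or no filter).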

Additional observations from a re-analysis of the deposited data

How the results depend on the processing

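None of the 10 factors was called by edgeR's quasi-likelihood test with RLE factors, other count filters, the replicate block or any library left out (0 in each), nor by limma on log2 FPKM. DESeq2 and limma voom each called 3. Over all genes, the 4 called became 1142 with DESeq2, 2369 with limma voom, 0 with the replicate block, 2 without ApoE 3 and DKO 1 together, 0 with log2(FPKM + 1) unfiltered, and 0 to 6 with 1 library left out. The cause was not tested. Libraries of the same replicate number, 1 to 3, had correlations of deviations of -0.39, 0.70 and 0.0036. These mixed values do not settle whether the numbers pair the libraries. Under the block Klf15 had a log2 fold change of -1.30. The sign of Klf10 reversed to -0.095 with limma voom, -0.0050 without ApoE 2, -0.058 without DKO 1 and -0.035 without DKO 2, within a range of -0.058 to 0.16 with 1 library left out. On scales chosen after seeing the data, the 5 factors whose groups lay apart in the lower direction became 3 with RLE factors, 2 on plain totals and 3 in FPKM (8.18%, 9.21% and 8.64% of all genes), and the 0 in the higher direction became 1 on plain totals and 1 in FPKM (7.37% and 6.74% of all genes). The other 9 factors kept their sign in every alternative that could fit them. Klf15 ranged from -1.30 to -0.96, Klf4 from -0.74 to -0.50, Klf9 from -0.59 to -0.42, Klf2 from -0.71 to -0.44, Klf13 from -0.38 to -0.24, Klf3 from 0.18 to 0.37, Klf6 from 0.0080 to 0.27, Klf11 from -0.31 to -0.11 and Klf5 from -0.96 to -0.19. Klf5 was filtered out with a minimum count of 50 and with a mean FPKM of at least 1, and its depth, 11 to 45 counts, limits what could be detected.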
